A study of Mus musculus with 6 samples.

Results

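Interferon response genes were examined in cultured cerebellar granule neurons, the small glutamatergic neurons of the cerebellar cortex, in which the histone H3K27 demethylase gene Kdm6b was knocked down. The set was a list of 37 symbols of type I interferon targets and of the sensors and transcription factors that switch them on, drawn up as a check of the response to lentivirus and hairpin. A row under the listed symbol was found for 36 of the 37 among 23366 genes, and all 36 had counts in all 6 libraries and passed the filter on low counts that left 15731 genes for testing. Ifi27 had no row under that symbol. The cells came from the cerebella of C57BL/6 mice at postnatal day 7 and were infected on day 1 in vitro with pLKO.1 lentivirus packaged in HEK293T cells. The control group carried the empty vector (n = 3), and the knockdown group carried the same vector with a hairpin against Kdm6b (n = 3). Both groups therefore carried lentivirus, and the controls expressed no hairpin. No uninfected culture was analysed here, so a response shared by both groups cannot be seen, and an effect of lower Kdm6b cannot be told apart from an effect of expressing a hairpin or from any other target of the hairpin. The only hairpin whose sequence the labels give has the 21-base strand gttcgttacaagtgagaactc. The labels say that BDNF was added in certain cases and do not say which, and each library is bulk RNA of a whole culture, so fewer cells of a type and less RNA per cell cannot be told apart.

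Cells detect foreign RNA through helicases of the RIG-I family, which signal to the transcription factors IRF3 and IRF7 and so switch on type I interferon genes. Secreted interferon binds a receptor on the same and on neighbouring cells, whose kinases activate STAT2. It joins a complex with IRF9 that binds the interferon-stimulated response element (ISRE), a repeat of GAAA, in the promoters of antiviral genes. Neurons, glia, microglia and stromal cells all carry this pathway.

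Promoter sequence is shown because the element is a property of the members that does not depend on their counts. The core GAAA, any 2 bases, GAAA was searched on both strands from 250 bases before to 50 after each annotated start (RefSeq, build GRCm38.p6), and a match is a description of letters only. It was found in 16 of the 29 members with a promoter in that table, against 426 of 11424 genes tested (3.73%) and 3.44% of all 32851 promoters. The windows of 30 bases below are printed 5′ to 3′ on the strand of the gene with the core in capitals. Where the capitals begin with TTTC, the core lies on the other strand. One window is printed for each of 9 members whose levels are described below, and where a promoter held several matches only 1 is printed.
Isg15 (chr4:156200871-156200900, minus strand): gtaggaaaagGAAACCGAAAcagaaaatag
Ifit1 (chr19:34640794-34640823, plus strand): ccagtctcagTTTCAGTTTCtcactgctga
Ifit3 (chr19:34583397-34583426, plus strand): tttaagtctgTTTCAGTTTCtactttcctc
Rsad2 (chr12:26456553-26456582, minus strand): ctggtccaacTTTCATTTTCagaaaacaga
Cxcl10 (chr5:92349083-92349112, minus strand): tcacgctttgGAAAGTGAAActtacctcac
Bst2 (chr8:71537577-71537606, minus strand): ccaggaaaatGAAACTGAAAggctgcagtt
Ifitm3 (chr7:141010706-141010735, minus strand): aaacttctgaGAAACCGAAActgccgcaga
Ifitm2 (chr7:140955988-140956017, minus strand): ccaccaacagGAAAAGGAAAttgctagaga
B2m (chr2:122147538-122147567, plus strand): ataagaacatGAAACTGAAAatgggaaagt
The core in Isg15 began 72 bases before the annotated start, that of Cxcl10 213 bases before it, and that of Ifitm3 19 bases after it. Among members in the table, no match was found in this window for Irf1, Irf3, Irf7, Irf9, Ifit2, Oasl2, Adar, Ifi35, Ifi44, Trim25, Tap1, Psmb8 and Psmb9.

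Gene counts per library ran from 50326298 to 88214069. Kdm6b was at 257, 146 and 170 CPM (counts divided by the TMM-scaled library size and multiplied by 1000000, the unit of all levels below) in control replicates 1 to 3 and at 88.8, 63.3 and 79.8 CPM in knockdown replicates 1 to 3, so the groups did not overlap. Its log2 fold change was −1.31 (SE 0.25, edgeR quasi-likelihood adjusted p = 0.216), and −1.28 (SE 0.11, edgeR adjusted p = 0.0282) with the replicate number as a block. The latter call was lost without pair 1 (edgeR adjusted p = 0.0933) or pair 2 (edgeR adjusted p = 0.0515). All 12 granule neuron markers were present, with a summed level of 3776 to 5537 CPM in controls and 3602 to 5296 CPM in knockdowns. Single markers moved in both directions, with log2 fold changes from −1.40 to 1.57 without the block. With the block 2 of the 12 were called higher and 2 lower (edgeR), against 2.58% and 5.4% of all genes. Deviations from the group means went together in libraries that share a replicate number, and such libraries are called pairs 1 to 3. The series calls the replicates biological and does not say whether each was a separate litter or culture, and the p-values reflect only how much these 6 libraries vary.

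The members were well expressed in both groups. Per exon length, in CPM per 1000 exon bases, the median member stood at 10.4 against 5.43 for 14718 tested genes with a length, and 30 of the 36 lay above that median. The highest were B2m, the light chain of MHC class I (447), Ifitm3 (351) and Ifitm2 (130), membrane proteins that restrict virus entry, Isg15, a ubiquitin-like modifier (104), and Bst2, or tetherin, which holds budding virus at the cell surface (98.1). The lowest was Mx1 (0.572), an antiviral GTPase that is known to be disrupted in common laboratory strains including C57BL/6. The lowest member count in any library was 29, for Mx1 in control replicate 3. Few reads were counted for the 10 interferon genes looked up, whose only alpha genes were Ifna1, Ifna2, Ifna4 and Ifna5. Counts were 0 in all 6 libraries for 8 of the 10. A count of 0 allows up to 0.034 to 0.0596 CPM of uniquely aligned reads, depending on depth. Alignments that were not unique, 16 to 19.3% of a library's total, were left out of the counts. Sequence shared between interferon genes was not examined, so these low counts do not show that interferon transcripts were absent. Ifnb1 had 1, 0 and 0 counts in controls and 2, 3 and 0 in knockdowns, and Ifna4 had 0 counts in each control and 1 in each knockdown.

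**Figure D1:**
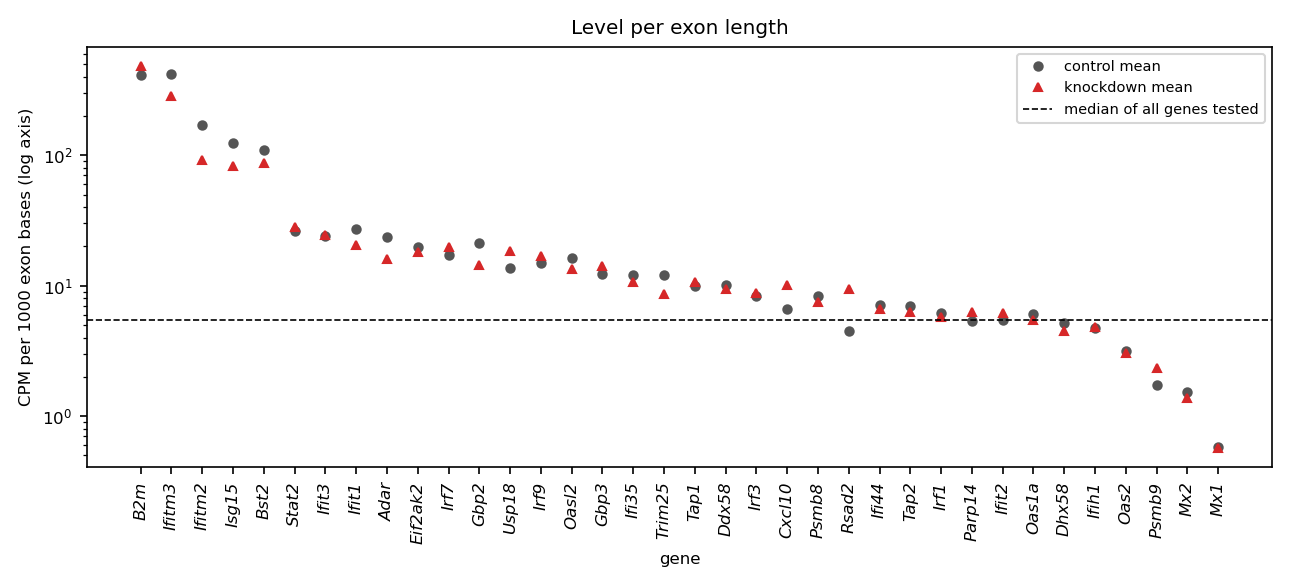
Mean level of each of the 36 interferon response genes in CPM per 1000 exon bases (log axis), controls as grey circles and knockdowns as red triangles (n = 3 each), with the median of all tested genes as a dashed line at 5.43. B2m and Ifitm3 were the highest and Mx1 the lowest, and the group means of most genes lay close together.

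The comparison asked whether these genes differed between cultures with the Kdm6b hairpin and cultures with the empty vector. In the edgeR quasi-likelihood test adjusted over all genes, 0 of the 36 members changed, where 1 of 15731 genes did (0.00636% of all genes) and Kdm6b itself missed the threshold. At an unadjusted p under 0.05, 2 members were lower (Ifitm2 and Adar, the RNA-editing enzyme ADAR1) and 0 higher, against 5.8% and 4.75% of all genes and 10.6% in either direction. limma-voom called 0 members and DESeq2 called 2, again Ifitm2 and Adar, both lower (3.61% of all genes, 2.48% lower). With the replicate block 1 member changed, Ifitm2, which fell, where 7.98% of all genes were called, 5.4% lower and 2.58% higher. The median log2 fold change of the members was −0.10 without and −0.05 with the block, against 0.02 for all genes in both fits, and 15 members were above 0 and 21 below without the block. Leaving out control replicate 2 turned that direction, to a median of 0.16 with 27 of 36 above 0, and leaving out knockdown replicate 1 gave 0.0162. With the block, the median was 0.09 without pair 1 and 0.09 without pair 2, and −0.34 without pair 3. Knockdown values lay wholly below the controls for 2 members (7.44% of all genes) and wholly above them for 0 (9.21% of all genes).

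The precision of each estimate sets what this can show. Standard errors of the log2 fold change ran from 0.134 to 0.918 without the block, with a median of 0.296 against 0.235 over all genes, and with the block the medians were 0.185 and 0.116. Without the block the 95% interval of the fold change lay below a 2-fold rise for 28 of 36 members, and not for Cxcl10, Gbp3, Ifit3, Irf7, Mx1, Psmb9, Rsad2 and Usp18. It lay above a 2-fold fall for 24, and not for Bst2, Cxcl10, Gbp2, Ifi35, Ifit1, Ifitm2, Ifitm3, Isg15, Mx1, Mx2, Oas2 and Trim25. With the block it lay below a 2-fold rise for 29 of 36, the exceptions being Cxcl10, Ifit3, Irf7, Mx1, Oas2, Rsad2 and Usp18. It then lay above a 2-fold fall for 32, the exceptions being Ifitm2, Ifitm3, Isg15 and Oas2. With 3 libraries in each group, no two-sided p below 0.1 could come from an exact permutation test.

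Ifitm2 was at 95.8, 126 and 111 CPM in controls 1 to 3 and at 46.6, 54.5 and 78.4 CPM in knockdowns 1 to 3. Every knockdown value lay below every control value. The means were 111 ± 15.2 and 59.8 ± 16.6 CPM (SD, n = 3). Its log2 fold change was −0.89 (SE 0.22, edgeR adjusted p = 0.307) without and −0.92 (SE 0.15, edgeR adjusted p = 0.0410) with the block. Leaving out pair 1 (edgeR adjusted p = 0.122) or pair 2 (edgeR adjusted p = 0.0771) ended that call. Of the 50-base words in Ifitm2 transcripts 48.5% also occur in transcripts of other genes, mainly the overlapping model Gm45717 and Gm11951, Gm8865 and Gm45308, so its level is uncertain.

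The closely related Ifitm3 was at 204.5, 377 and 270.5 CPM in the controls against 123, 195 and 256 CPM in the knockdowns. The groups overlapped, but each knockdown library was below the control of its number (log2 fold change −0.57, SE 0.33, edgeR adjusted p = 0.575; −0.59, SE 0.18, edgeR adjusted p = 0.101 with the block). Without control replicate 2 the Ifitm3 value was −0.31 and without knockdown replicate 1 −0.33. Ifitm1, the neighbouring family member outside the list, stood at 48.7, 70.2 and 61.8 CPM in the controls against 20.9, 26.4 and 47.5 CPM in the knockdowns, without overlap (log2 fold change −0.93, edgeR adjusted p = 0.421; −1.003, edgeR adjusted p = 0.0571 with the block). Of the words of Ifitm1, 5.02% are shared, with Gm7676 and Ifitm3. IFITM proteins are also known to be abundant in stromal cells. The 12 pericyte and fibroblast markers summed to 13290, 23350 and 26660 CPM in the controls against 4379, 7006 and 12090 CPM in the knockdowns. With the block, 8 of the 12 were lower past the threshold (edgeR), against 5.4% of all genes, and none was at 0 in any library. Their sum was lower in the knockdown in all 3 pairs, and so were the microglia and oligodendrocyte lineage sums. The part of any of these cells in the Ifitm values was not tested.

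Adar was at 199.9, 212 and 159 CPM in the controls against 138, 124 and 129 CPM in the knockdowns, again without overlap. The means were 190 ± 27.8 and 130 ± 6.88 CPM (SD, n = 3), a log2 fold change of −0.545 (SE 0.14, edgeR adjusted p = 0.318) without and −0.535 (SE 0.11, edgeR adjusted p = 0.0523) with the block, which missed the threshold. Chrnb2, a nicotinic receptor gene on the opposite strand, overlaps Adar exons, and 14.4% of the 50-base words of Adar occur in transcripts of other genes. Chrnb2 was at 104, 97.9 and 67.8 CPM in the controls against 115, 112 and 71.5 CPM in the knockdowns, the opposite direction in each pair.

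The 3 RNA sensors did not pass either fit. Ddx58, which encodes RIG-I, was at 55.2, 104 and 53.7 CPM in the controls against 49.2, 80.9 and 70.6 CPM in the knockdowns. Ifih1, the sensor MDA5 for long RNA duplexes, was at 34.0, 52.0 and 29.2 CPM in the controls against 29.2, 44.8 and 43.4 CPM in the knockdowns. Dhx58, the regulator LGP2, was at 15.1, 23.6 and 11.9 CPM against 12.0, 14.997 and 16.7 CPM. In all 3 the groups overlapped, the knockdown was lower in pairs 1 and 2, and it was higher in pair 3. Another sensor of RNA duplexes, the translation-blocking kinase gene Eif2ak2 (PKR), was at 105, 119 and 78.5 CPM in the controls against 102, 88.4 and 88.5 CPM in the knockdowns (log2 fold change −0.12, SE 0.17).

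Among the transcription factors, Irf3, which is present before any stimulus, varied least of all members, by 1.29-fold between its highest and lowest library. Irf3 levels were 29.3, 31.7 and 24.5 CPM in the controls against 29.3, 29.9 and 31.4 CPM in the knockdowns. Irf7, which is itself interferon-induced, was at 99.5, 68.7 and 26.8 CPM in the controls against 89.6, 71.2 and 64.7 CPM in the knockdowns (log2 fold change 0.21, SE 0.45). Its 1 low value was that of control replicate 3, without which the log2 fold change was −0.17. Stat2 was at 149, 212 and 107 CPM in the controls against 157, 193 and 151 CPM in the knockdowns (log2 fold change 0.10, SE 0.26). Irf9 stood at 91.5, 98.7 and 48.8 CPM in the controls against 101, 102 and 72.1 CPM in the knockdowns, higher in all 3 pairs (log2 fold change 0.20, SE 0.29; 0.25, SE 0.12, edgeR adjusted p = 0.211 with the block). Without control replicate 3 the Irf9 value was −0.06 and that of Stat2 −0.12. Irf1 was at 21.1 to 29.7 CPM in controls and 21.7 to 23.9 CPM in knockdowns.

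None of the other antiviral effectors passed either fit. Rsad2, or viperin, an enzyme that makes a chain-terminating nucleotide, was at 36.7, 16.8 and 4.50 CPM in the controls against 51.0, 39.6 and 30.9 CPM in the knockdowns. It was higher in all 3 pairs and the groups overlapped only through control replicate 1. Its log2 fold change was 1.06 (SE 0.68, edgeR adjusted p = 0.603) without and 1.44 (SE 0.45, edgeR adjusted p = 0.104) with the block, the highest of the list and short of the threshold in both fits. Without the block, leaving out control replicate 1 gave 1.93 for Rsad2 and leaving out control replicate 3 gave 0.59. Ifit1, which binds viral RNA lacking host cap marks, went the other way in pairs 1 and 2, at 69.1, 114 and 32.3 CPM in the controls against 50.9, 66.1 and 46.7 CPM in the knockdowns (log2 fold change −0.39, SE 0.43, and 0.11 without control replicate 2). Ifit2 was at 27.2, 21.3 and 16.2 CPM against 29.8, 22.0 and 20.7 CPM (log2 fold change 0.17, SE 0.24). Ifit3 was at 45.7, 61.8 and 18.6 CPM against 38.5, 47.7 and 42.1 CPM, with 51.2% of its 50-base words shared, mainly with the near-copy Ifit3b.

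The oligoadenylate synthetase genes, best known for activating the RNA-cutting enzyme RNase L, also overlapped between groups. Oasl2 was at 103, 146 and 64.5 CPM in the controls against 97.3, 85.3 and 76.1 CPM in the knockdowns (log2 fold change −0.28, SE 0.29, and 0.04 without control replicate 2). Oas2 was at 16.8, 16.9 and 8.48 CPM against 7.96, 12.0 and 20.6 CPM, lower in pairs 1 and 2 and higher in pair 3. Oas1a stayed between 7.73 and 14.99 CPM, and 57.6% of its words are shared with Oas1g and Oas1b. Mx1 was at 3.22, 2.76 and 0.553 CPM in the controls against 2.57, 2.12 and 1.77 CPM in the knockdowns (log2 fold change −0.02, SE 0.62, above 0 with library totals alone and with the block), and Mx2 at 2.53 to 7.65 CPM against 4.42 to 5.43 CPM. Bst2 was at 79.8, 137 and 79.4 CPM in the controls against 48.9, 95.5 and 90.5 CPM in the knockdowns (log2 fold change −0.34, SE 0.33). The Bst2 value was −0.024 without control replicate 2 and −0.09 without knockdown replicate 1. Ifi35 (14.9 to 30.3 CPM in controls and 11.6 to 22.7 CPM in knockdowns) and Ifi44 (26.9 to 62.1 and 32.1 to 48.2 CPM) overlapped between groups as well. For the 37th symbol, the RefSeq table gives Ifi27l1 as an older name of Ifi27. The row Ifi27l1 was not taken in by the selection and was chosen after its values were seen. Ifi27l1 was at 26.9, 33.7 and 45.8 CPM in the controls against 20.0, 23.9 and 32.8 CPM in the knockdowns. Its log2 fold change was −0.47 in both fits, and it was lower in all 3 pairs. It passed the threshold with the block (edgeR adjusted p = 0.0362) but not without it (edgeR adjusted p = 0.561). With the block, the Ifi27l1 call was lost with library totals alone (edgeR adjusted p = 0.0633) and without pair 1, 2 or 3 (edgeR adjusted p = 0.13, 0.0711 and 0.073).

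Isg15, the protease that removes it and the ligase Trim25 did not share a direction, and none passed either fit. Isg15 was at 78.7, 141 and 61.8 CPM in the controls against 48.6, 75.3 and 65.0 CPM in the knockdowns (log2 fold change −0.58, SE 0.34, edgeR adjusted p = 0.573). Control replicate 2 was the highest library and the groups overlapped, and without it the Isg15 value was −0.16. Usp18, the protease that removes ISG15 and dampens receptor signalling, was at 43.0, 53.5 and 17.2 CPM in the controls against 50.5, 67.4 and 37.3 CPM in the knockdowns, higher in all 3 pairs (log2 fold change 0.45, SE 0.43; 0.55, SE 0.19, edgeR adjusted p = 0.123 with the block). Without control replicate 3 the Usp18 value was 0.09. Trim25, a ubiquitin ligase acting on RIG-I, was lower in all 3 pairs, at 54.1, 87.8 and 66.7 CPM against 32.3, 51.3 and 66.3 CPM (log2 fold change −0.48, SE 0.30; −0.51, SE 0.17, edgeR adjusted p = 0.120 with the block). Without knockdown replicate 1 the Trim25 value was −0.24 and without control replicate 2 −0.27. Parp14 was at 35.6 to 68.9 CPM in controls and 49.0 to 65.7 CPM in knockdowns.

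Antigen presentation genes varied least between replicate numbers, and none passed either fit. B2m was at 415.5, 348 and 296 CPM in the controls against 358, 419.6 and 469.6 CPM in the knockdowns (log2 fold change 0.24, SE 0.18, edgeR adjusted p = 0.662; 0.11 without control replicate 3 and 0.14 without knockdown replicate 3). The peptide transporter genes Tap1 (47.5 to 62.3 CPM in controls, 55.3 to 63.8 CPM in knockdowns) and Tap2 (21.9 to 31.6 and 19.5 to 30.2 CPM) and the immunoproteasome genes Psmb8 (21.9 to 32.0 and 23.1 to 28.3 CPM) and Psmb9 (5.46 to 7.94 and 6.46 to 10.9 CPM) overlapped between groups. The highest replicate number exceeded the lowest by a median of 1.13-fold in this group, against 1.62-fold over all 36 members and 1.40-fold over all genes.

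Cxcl10, a chemokine that draws T cells, varied most of the members. It was at 25.7, 17.7 and 1.45 CPM in the controls against 30.6, 26.9 and 10.9 CPM in the knockdowns, 21.1-fold between its highest and lowest library. It was higher in the knockdown in all 3 pairs, and the groups overlapped. Its log2 fold change was 0.61 (SE 0.92, edgeR adjusted p = 0.837) without and 1.11 (SE 0.53, edgeR adjusted p = 0.212) with the block. Without the block, leaving out control replicate 3 gave 0.06 for Cxcl10 and leaving out control replicate 1 gave 1.26. The guanylate-binding protein gene Gbp2 was lower in all 3 pairs, at 54.5, 73.5 and 32.5 CPM against 41.2, 36.5 and 31.2 CPM (log2 fold change −0.56, SE 0.30, edgeR adjusted p = 0.546; −0.26 without control replicate 2). Gbp3 was at 42.9, 56.8 and 19.4 CPM against 45.0, 52.7 and 39.995 CPM.

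**Figure D2:**
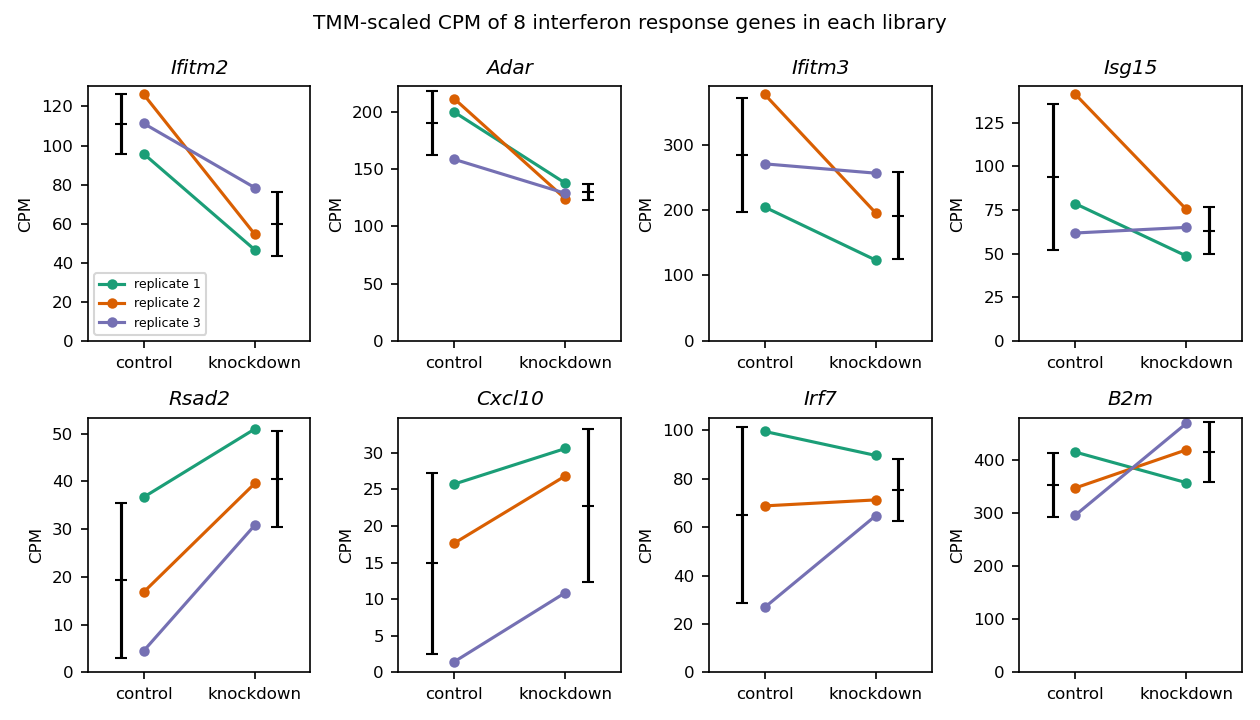
TMM-scaled CPM (linear axes from 0) of 8 members in each library, where lines connect libraries that share a replicate number and black marks give each mean with its SD (n = 3). Ifitm2 and Adar were lower in the knockdown in all 3 pairs without overlap, Rsad2 and Cxcl10 were higher in all 3 pairs with overlap, and control replicate 3 was the lowest library for Rsad2, Cxcl10, Irf7 and B2m.

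The control libraries spread more widely than the knockdown libraries. Control replicate 3 was the lowest of the 6 libraries for 23 of the 36 members, against 18.6% of all genes, and control replicate 2 was the highest for 25, against 19% of all genes. The median member lay 0.37 below its own mean over the libraries in control replicate 3 and 0.43 above it in control replicate 2, on the log2 scale, while the 3 knockdown medians lay between −0.07 and 0.05. The summed level of all 36 members was 2433, 3064 and 1853 CPM in the controls against 2046, 2383 and 2347 CPM in the knockdowns, so the knockdown range lay inside the control range.

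**Figure D3:**
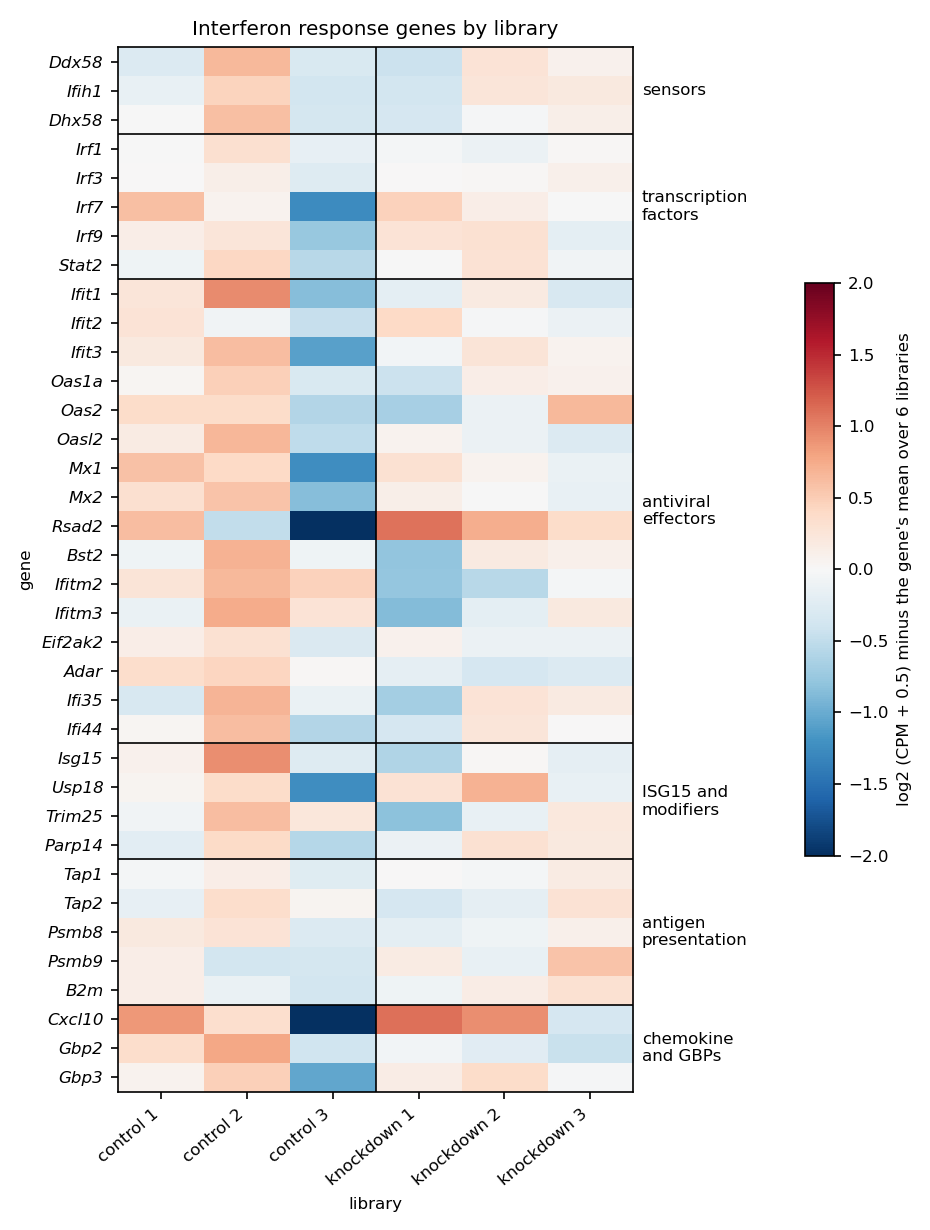
Log2 (CPM + 0.5) of each of the 36 members in each library minus the gene's mean over the 6 libraries, with colours ending at 2 in either direction and genes grouped by role. Control replicate 2 is mostly red and control replicate 3 mostly blue, with Rsad2, Cxcl10, Irf7, Mx1 and Usp18 darkest, while the knockdown columns are paler.

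The pairs accordingly gave opposite signs. The median log2 difference, knockdown minus control, over the members was −0.21 in pair 1, −0.36 in pair 2 and 0.44 in pair 3, where all genes had medians of 0.01, 0.00 and 0.03. The knockdown was higher for 11, 8 and 31 of 36 members in pairs 1, 2 and 3, against 8137, 7853 and 8445 of 15731 genes. In pair 3 the knockdown was over 2-fold higher for 8 members, Irf7, Ifit3, Oas2, Mx1, Rsad2, Usp18, Cxcl10 and Gbp3, against 0.756% of all genes. It was so for 0 members in pair 1 (0.655% of all genes) and for Rsad2 alone in pair 2 (2.91% of all genes). The knockdown was lower in all 3 pairs for 5 members, Ifitm2, Ifitm3, Adar, Trim25 and Gbp2, against 28.5% of all genes. It was higher in all 3 for 6, Irf9, Ifit2, Rsad2, Usp18, Psmb9 and Cxcl10, against 31.7% of all genes. The 16 members with the ISRE core in the searched window had pair medians of −0.23, −0.37 and 0.44. The 13 without a match there had −0.09, −0.36 and 0.35, so both sets showed the same pattern of signs. The other 7 had no promoter sequence to search. The 13 can hold the element outside the window or in other letters, so its role was not tested.

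Leaving out control replicate 3 moved the median log2 fold change of the members from −0.10 to −0.29, with 30 of 36 below 0, and leaving out control replicate 2 turned it as given above. Neither fit called any member. With the block, leaving out pair 3 gave 6 calls, all lower, where 8.06% of all genes were called and 6.63% were called lower. These 6 were Ifitm2 (log2 fold change −1.13, edgeR adjusted p = 0.0194), Ifitm3 (−0.85, 0.0282), Isg15 (−0.81, 0.0284), Trim25 (−0.77, 0.0283), Adar (−0.66, 0.0403) and Bst2 (−0.62, 0.0417). Leaving out pair 1 or pair 2 gave 0 calls among the members, against 0% and 0.332% of all genes. No fit with edgeR or limma-voom called any member higher. DESeq2 with the block called 1 higher, Usp18, and 5 lower, Ifitm2, Adar, Ifitm3, Isg15 and Trim25 (21.9% of all genes, 14.4% lower).

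**Figure D4:**
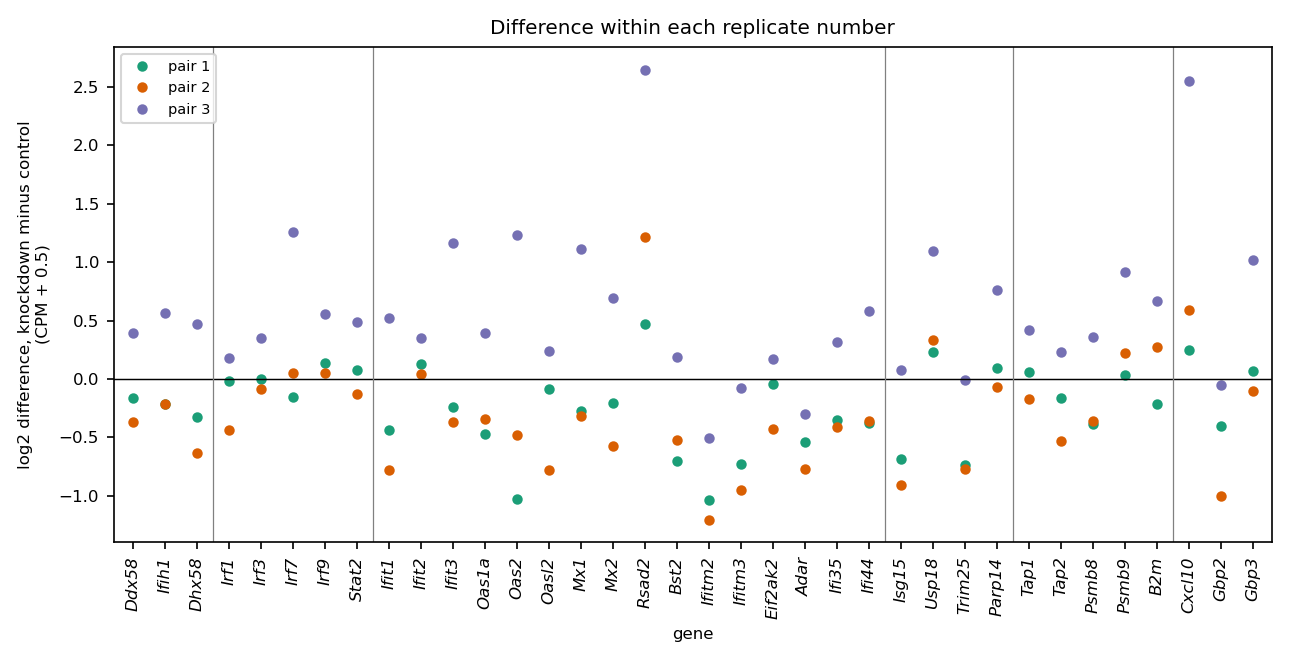
Log2 difference in CPM + 0.5, knockdown minus control, of each member within replicate numbers 1 (green), 2 (orange) and 3 (purple), with grey lines between the role groups and 0 marked. Pair 3 lies above 0 for 31 of 36 members and pairs 1 and 2 for 11 and 8, and Ifitm2, Ifitm3, Adar, Trim25 and Gbp2 lie below 0 in all 3 pairs.

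In the fit with replicate number and group, 3 of 36 members differed between numbers (edgeR adjusted p = 0.0393 for Irf9, 0.0397 for Ifit2 and 0.0451 for Usp18), against 26.1% of all genes. Markers of other cells stood beside this as follows. The summed level of 16 microglia markers was 220, 73.2 and 143 CPM in the controls against 34.1, 32.4 and 92.6 CPM in the knockdowns, and Aif1, C1qb, Cx3cr1 and Ptprc were at 0 in some library. The microglia sum was lower in the knockdown in all 3 pairs, as were 10 of the 16 markers, against 28.5% of all genes. With the block 1 of the 16 was lower past the threshold (edgeR), against 5.4% of all genes. The median log2 difference of these markers was −2.95, −0.045 and −0.27 in pairs 1 to 3, so most of it lay in pair 1. Their median level was 2.33 CPM. The 10 astrocyte markers summed to 1356, 1634 and 3371 CPM in the controls against 886, 1020 and 3557 CPM in the knockdowns, high in both libraries of number 3. The 12 endothelial markers ran from 99.7 to 174 CPM in controls and 80.2 to 193 CPM in knockdowns, and the 10 oligodendrocyte lineage markers from 204 to 1299 CPM and 167 to 975 CPM. The part of these cells in the levels of the members was not tested.

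Of 93 further genes of the pathway, listed by role and not by how they moved, 92 were in the table and 81 were tested. None passed without the block (edgeR), 5 were lower and 0 higher at an unadjusted p under 0.05, against 5.8% and 4.75% of all genes. DESeq2 called 0 of them (3.61% of all genes), and limma-voom called 0 (0.00636% of all genes). With the block 1 was called, Ifngr2, a chain of the interferon gamma receptor, which fell (7.98% of all genes were called). Ifngr2 was at 58.7, 74.0 and 61.5 CPM in the controls against 39.0, 53.2 and 48.4 CPM in the knockdowns, without overlap (log2 fold change −0.47, SE 0.16, edgeR adjusted p = 0.407; −0.47, SE 0.08, edgeR adjusted p = 0.0414 with the block). The call was lost with library totals alone and without any of the pairs. Across the 6 receptor genes the median was −0.31 (log2) and 5 of the 6 were below 0. The type I receptor gene Ifnar1 was at 108, 103 and 113 CPM in the controls against 93.4, 88.5 and 103 CPM in the knockdowns. The 45 other interferon targets had a median of −0.10 (log2). Their pair medians were −0.30, −0.30 and 0.35, and control replicate 3 was the lowest library for 23 of them.

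The library kit kept strand, but whether the counting used it is not stated in the labels. Exons of 14 members (Dhx58, Irf1, Irf3, Irf7, Eif2ak2, Adar, Ifi35, Usp18, Tap1, Tap2, Psmb8, Psmb9, Cxcl10 and Gbp2) lie over genes of the opposite strand, while exons of Irf9, Ifitm2 and Parp14 overlap genes on the same strand in GENCODE M21, so their levels are uncertain.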

How the data were processed

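The values are counts of reads per gene, deposited by the authors as 1 table of 6 libraries. Per the submitters' processing notes the tools were Trimmomatic, TopHat2, HTSeq, edgeR and DESeq2 and the build mm9. Their versions, the annotation and the strand setting are not stated. Rows that name no gene (no feature 12.1 to 15% of a library's total, ambiguous 0.406 to 0.509%, not unique 16 to 19.3%) were left out.

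Counts were tested with edgeR 4.0.16 (quasi-likelihood, TMM, filterByExpr with a minimum count of 10 and total of 15, R 4.3.3), knockdown against control without a block, with Benjamini-Hochberg adjustment over all 15731 genes tested and a threshold of 0.05. The SE was taken as |log2 fold change| over the root of F, and 95% intervals use the t distribution. Levels are CPM from TMM-scaled library sizes, and pair differences use log2 (CPM + 0.5). Pairing was checked from deviations from the group means: libraries with the same number correlated at 0.814, 0.673 and 0.759 and those with different numbers at −0.542 to 0.0166, so the replicate block is given where it changes a call or count. Alternatives were DESeq2 1.42.0, limma-voom (limma 3.58.1), other scalings and filters, and leaving out libraries or pairs. The scripts were tested on simulated data.

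Lengths, overlaps and shared 50-base words came from GENCODE M21 by symbol, and promoters from RefSeq GRCm38.p6; no coordinate was converted from mm9. Members and lists were chosen with earlier results of these data known. All members are accounted for. By rule, values in every library were given for those past the threshold in either fit, those whose groups do not overlap, the 6 with the highest mean CPM and the 6 with the widest spread between replicate numbers. Others were added to complete their role group. Pathway genes outside the list were named where past the threshold in either fit; Ifnar1, Ifitm1, Ifnb1 and Ifna4 were added after their values were seen.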

Additional observations from a re-analysis of the deposited data

How the results depend on the processing

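The number of genes called depended on the replicate block and the tool. Without the block edgeR called 1 gene, DESeq2 568 and library totals alone 0. With the replicate block edgeR called 1256, DESeq2 3440, library totals alone 1276, limma-voom 1394, a mean of at least 5 CPM 1439, no filter 1598, RLE factors 1342 and upper-quartile factors 1350. Leaving out a library, or a pair with the block, gave 0 to 1272. Members called were 0 without the block and 2 with DESeq2 (3.61% of all genes). With the replicate block they were 1 (7.98% of all genes) and, with DESeq2, 6 (21.9% of all genes). The block gave 1 of 36 with library totals alone, against 1276 of 15731 genes. It gave 2 of 36 with limma-voom (1394 of 15731 genes), RLE (1342 of 15731) and upper-quartile factors (1350 of 15731). It also gave 2 of 36 with no filter (1598 of 19644 genes) and 2 of 35 with the 5 CPM filter (1439 of 11782). Adar joined Ifitm2 where 2 were called. Leave-outs gave 0 to 6. Of 81 pathway genes tested, 1 was called with the replicate block, against 7.98% of all genes. DESeq2 with the block called 17 of them, 5 higher and 12 lower, against 21.9% of all genes. No filter with the block called 3 of 84, against 1598 of 19644 genes. The block with limma-voom, RLE or upper-quartile factors called 1 of 81 pathway genes each, and with 5 CPM 1 of 68. Counts over all genes for these settings are given above. Leave-outs gave 0 to 8 pathway genes. The 8, all lower, came without pair 3, of 80 tested and against 8.06% of all genes. The log2 fold change of Kdm6b passed the threshold with DESeq2 (−1.32), the replicate block (−1.28), and the block with DESeq2 (−1.30), library totals (−1.21), limma-voom (−1.27), 5 CPM (−1.27), no filter (−1.29), RLE (−1.30) and upper-quartile factors (−1.27), and ran from −1.47 to −1.03 in leave-outs. With the block its call was lost without pair 1 (edgeR adjusted p = 0.0933) or pair 2 (edgeR adjusted p = 0.0515), and no fit without the block that left out a library called it. The cause of these differences was not tested.

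Fold changes under the alternatives were followed singly for part of the members, and signs turned for 8 of these. Among the 8 were Ifit1 (−0.39), Oasl2 (−0.28), Irf7 (0.21) and Irf9 (0.20). Members above 0 went from 15 of 36 in the main fit to 27 without control replicate 2, so others turned too. Mx1 (−0.02) was at 0.0225 with library totals alone, 0.30 with limma-voom, 0.23 with the replicate block, and with the block 0.25 (DESeq2), 0.30 (library totals), 0.0753 (limma-voom), 0.22 (no filter), 0.22 (RLE) and 0.24 (upper-quartile). Leave-outs ran from −0.48 to 0.57 for Mx1, −0.28 to 0.048 for Eif2ak2, −0.75 to 0.11 for Ifit1, −0.0152 to 0.37 for Ifit2, −0.17 to 0.66 for Irf7, −0.0642 to 0.39 for Irf9, −0.55 to 0.0579 for Oasl2 and −0.12 to 0.38 for Stat2. Of the other alternatives for single genes, 478 kept direction and side of the threshold and 44 passed it. With 3 libraries a group, the spread between libraries sets the intervals of the members.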
